A study of Mus musculus with 8 samples.

Results

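Dcstamp and 7 further genes of osteoclasts and fusing macrophages (Acp5, Ctsk, Atp6v0d2, Itgb3, Mitf, Csf1r and Tnfrsf11a) were followed in RNA from sorted tumour CD8 T cells. They are 8 of 19673 genes in the deposited table, and all 8 were found by symbol. The set was chosen by its leading gene: Dcstamp was picked for its higher values in KO than in WT libraries, and the others were added for their place in the same pathway with the results known. The difference between hosts is therefore given as a description for these 8 genes and is not tested. The KO group was live CD45+CD3e+CD8+ cells from Py8119 tumours, a mouse mammary tumour line, grown in hosts labelled as knockout for Mtdh (metadherin). The WT group was the same sort from Py8119 tumours in wild-type hosts. Each group had 4 biological replicates, numbered 1 to 4 in each. What the hosts differ in is Mtdh alone as far as the labels say, and the allele, strain, age, sex and whether animals were pooled are not given in the sources used here. Bulk values cannot tell fewer cells of a type apart from less RNA per cell.

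Osteoclasts form when monocyte-lineage precursors fuse into cells with many nuclei. Macrophage colony-stimulating factor acts through Csf1r to keep the precursors alive, and RANKL acts through RANK to switch on the transcription factor NFATc1 and, with it, Dcstamp, a multi-pass membrane protein that fusion of osteoclasts and foreign-body giant cells requires. The mature cell seals itself to bone through an integrin, acidifies the gap with a proton pump and digests the matrix. The 8 genes are not used as markers of CD8 T cells, whereas RANKL is known to be made by activated T cells.

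Among promoters of the set in RefSeq, 8 windows of 4 genes (Acp5, Ctsk, Mitf and Tnfrsf11a) were read, running from 250 bases before to 50 bases after a transcription start. They were searched on both strands for the E-box letters bound by MITF and its relatives, CATGTG or CACGTG. Only 1 of the 8 windows held a match, an Acp5 start on the minus strand of chr9:22130549-22130848 (GRCm38.p6), and it is shown for that reason, with the E-box in capitals beginning 90 bases before the start. The match is a CATGTG read on the opposite strand, and 20.4% of 32851 promoter windows held such a match. The same letters with the next base form the longer M-box TCATGTG, which 7.40% of windows held as TCATGTG or TCACGTG.
Acp5: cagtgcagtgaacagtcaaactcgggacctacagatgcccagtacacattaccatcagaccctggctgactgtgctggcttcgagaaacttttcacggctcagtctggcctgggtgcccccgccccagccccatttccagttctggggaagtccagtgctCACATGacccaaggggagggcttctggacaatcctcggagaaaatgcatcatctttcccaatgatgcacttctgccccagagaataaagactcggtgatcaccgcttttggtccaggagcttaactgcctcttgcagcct
Acp5 encodes tartrate-resistant acid phosphatase, an enzyme used to stain osteoclasts. The match describes these letters only.

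The values are read as reads per gene that the authors divided by a DESeq2 size factor, and are called normalized values here. Libraries held an estimated 16400000 to 29600000 reads. Small RNAs (small nuclear, nucleolar and Cajal body RNAs) made up 27.6% to 35.2% of the summed values. The other reads came from an estimated 124000 to 583000 distinct cDNA fragments. One fragment was worth a normalized value of 25.97 in WT library 3, the most complex, and of 139 in KO library 2, the least complex. Mtdh, the gene targeted in the hosts, had 5118, 4622, 2538 and 3341 in KO libraries 1 to 4, against 9324, 12745, 6407 and 7974 in WT libraries 1 to 4, so the labelled groups did not overlap (log2 fold change -1.23, SE 0.25, limma adjusted p = 0.0400). Mtdh reads thus remained in every KO library, with a mean of 3905 ± 1179 in KO against 9113 ± 2699 in WT, and which cells or which part of the gene they came from was not tested. Macrophage transcripts were abundant in spite of the CD8 gate: all 14 macrophage and monocyte markers were above 0 in every library, with a summed value of 109624 to 247287 in KO and 182117 to 291403 in WT. The 12 CD8 T cell markers, also above 0 in every library, summed to 23977 to 51115 in KO and 9142 to 31649 in WT. None of the matched markers of 8 cell types was at 0 in every library. The leading macrophage marker, the lysozyme gene Lyz2, ranged over 75242 to 186897 in KO libraries and over 130076 to 211543 in WT libraries.

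Dcstamp (ENSMUSG00000022303, plus strand of chromosome 15, 39609326 to 39624334 of mm39) had normalized values of 1052, 1510.4, 918 and 1299 in KO libraries 1 to 4, against 143, 307, 218 and 240.5 in WT libraries 1 to 4. The lowest KO library was thus well above the highest WT library. The mean was 1195 ± 263 in KO and 227 ± 67.4 in WT (n = 4 each, SD), and the log2 fold change of KO over WT, called the log2 ratio from here on, was 2.42 (SE 0.40), or 5.34-fold. In estimated fragments this was 14.2, 10.8, 21.3 and 34.5 in the KO libraries, against 2.34, 4.83, 8.39 and 7.20 in the WT libraries. The WT level therefore rests on fewer than 10 fragments in each library. No other listed gene overlaps Dcstamp. The log2 ratio lay between 2.21 and 2.58 when any library was left out.

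**Figure D1:**
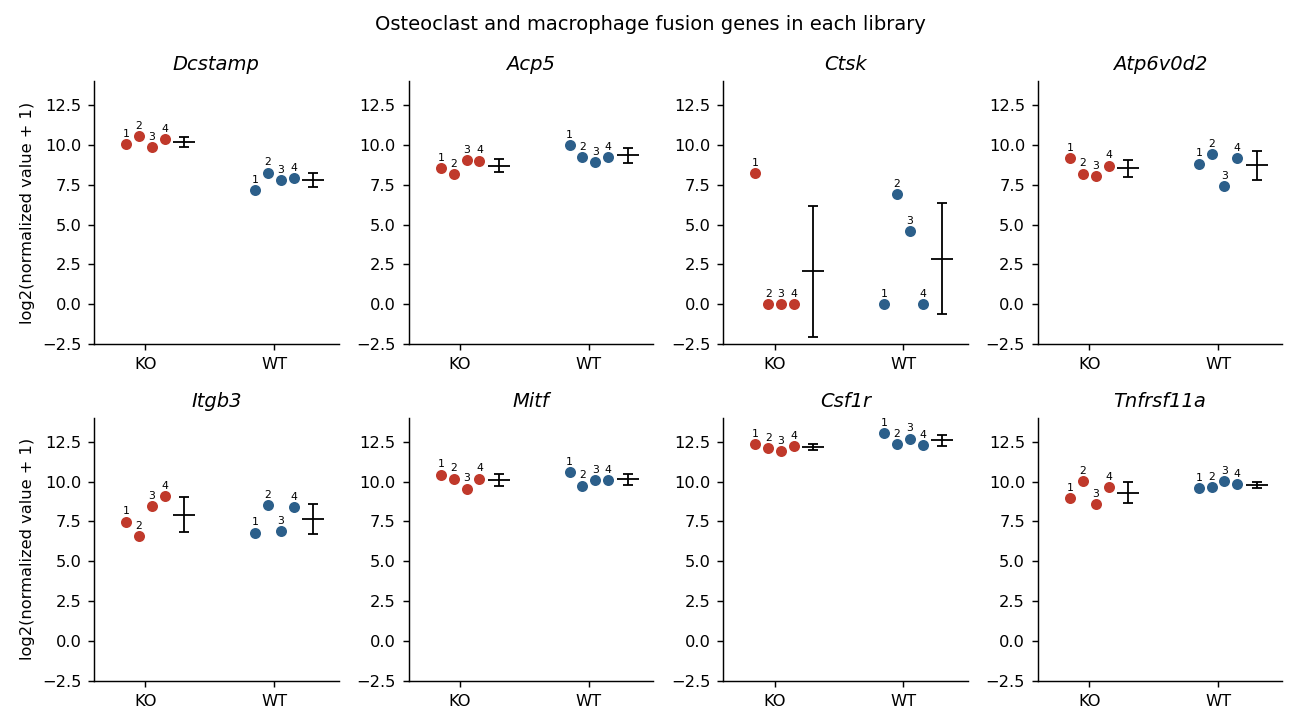
Normalized value of each of the 8 genes on a log2(value + 1) axis, with KO left of WT. Points are libraries, numbered by replicate, and the black bar is the mean with its SD (n = 4 each). The 4 KO points of Dcstamp lie above the 4 WT points, whereas the groups overlap for the other 7 genes.

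Of the 8 genes, Dcstamp alone had groups that did not overlap, and it alone was among the genes called across the table at a limma adjusted p of 0.05, which is how it came to be chosen. Among all 16120 genes tested, 0.236% passed that threshold in either direction, 0.211% higher in KO and 0.0248% lower in KO. Groups did not overlap for 4.11% of tested genes, 2.02% higher in KO and 2.09% lower in KO. Since Dcstamp was chosen from this contrast, its call is not a test of it and its place in these shares is no result. The call was also lost without KO library 4 and with the replicate number as a block. All 8 genes passed the minimum mean of 10 over the 8 libraries. Their median log2 ratio was -0.32, and that of the 7 genes other than Dcstamp was -0.45, beside -0.12 over all genes tested.

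The receptors of the pathway had lower means in KO than in WT, with groups that overlapped. Csf1r, the receptor for macrophage colony-stimulating factor and IL-34 (ENSMUSG00000024621, plus strand of chromosome 18, 61233670 to 61265221), had normalized values of 5158, 4437, 3792 and 4806 in KO libraries 1 to 4, against 8334, 5172, 6604 and 5043 in WT libraries 1 to 4. WT library 4 lay below KO library 1, so the groups overlapped by that 1 pair. The means were 4548 ± 584 in KO and 6288 ± 1536 in WT (n = 4 each, SD), with a log2 ratio of -0.45 (SE 0.21). Csf1r overlaps Hmgxb3 on the opposite strand, whose mean was 402, and strand was not stated. Tnfrsf11a, which encodes RANK (ENSMUSG00000026321, plus strand of chromosome 1, 105708443 to 105775709), had 499.6, 1058, 379 and 808 in KO libraries 1 to 4, against 762, 804, 1025 and 914 in WT libraries 1 to 4. KO libraries lay on either side of the WT range, and the log2 ratio was -0.46 (SE 0.36). It was -0.70 without KO library 2 and -0.21 without KO library 3.

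The transcription factor Mitf, which acts with its relatives on osteoclast genes (ENSMUSG00000035158, plus strand of chromosome 6, 97784013 to 97998310), was at nearly the same level in the groups. Its normalized values were 1384, 1165, 751 and 1167 in KO libraries 1 to 4, against 1535, 857, 1106 and 1075 in WT libraries 1 to 4. The log2 ratio was -0.04 (SE 0.30), and its sign turned without KO library 3 (0.14) or WT library 1 (0.12). Acp5, the gene with the E-box shown above (ENSMUSG00000001348, minus strand of chromosome 9, 22038023 to 22047007), had 377, 289.5, 531 and 513 in KO libraries 1 to 4, against 1018, 595, 488 and 591 in WT libraries 1 to 4. Its groups overlapped through WT library 3, and WT library 1 stood highest. The means were 428 ± 115 in KO and 673 ± 235 in WT (n = 4 each, SD), with a log2 ratio of -0.64 (SE 0.40), or -0.42 without WT library 1.

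The remaining effectors were low or scattered. Atp6v0d2, the proton pump subunit enriched in osteoclasts and itself tied to fusion (ENSMUSG00000028238, minus strand of chromosome 4, 19876841 to 19922605), had 572, 292, 259.8 and 413 in KO libraries 1 to 4, against 453, 692, 169.5 and 575 in WT libraries 1 to 4. Its KO range lay inside its WT range, with a log2 ratio of -0.19 (SE 0.51), which ran from -0.63 without WT library 3 to 0.05 without WT library 2 and was 0.27 with array weights. Itgb3, the integrin beta 3 chain (ENSMUSG00000020689, plus strand of chromosome 11, 104498826 to 104561302), had 179, 95.8, 355 and 542 in KO libraries 1 to 4, against 111, 362, 118 and 341 in WT libraries 1 to 4. The order of the libraries was mixed, with a log2 ratio of 0.26 (SE 0.72), which ran from -0.14 without KO library 4 to 0.69 without KO library 2 and was 1.05 with array weights. Ctsk, the collagen-degrading protease of osteoclasts (ENSMUSG00000028111, plus strand of chromosome 3, 95406567 to 95416673), was listed at 303 in KO library 1 and at 0 in the other KO libraries, against 120.2 and 22.8 in WT libraries 2 and 3 and 0 in the other WT libraries. A defining osteoclast gene was thus listed at 0 in 5 of 8 libraries, and its highest value amounted to 4.08 estimated fragments. Its mean was higher in KO, at 75.7 against 35.7 in WT, whereas its log2 ratio was negative at -0.81 (SE 2.30), so the scale decides the sign. The log2 ratio was -2.87 without KO library 1 and 0.54 without WT library 2.

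Levels of the genes were compared per kb of exon, with lengths from GENCODE M21. In KO the order was Csf1r at 788 ± 101 per kb, Dcstamp at 449 ± 98.7, Acp5 at 211 ± 56.7, Mitf at 180.2 ± 42.7, Atp6v0d2 at 141 ± 52.1, Tnfrsf11a at 115 ± 51.2, Ctsk at 50.05 ± 100.1 and Itgb3 at 49.6 ± 33.6 (n = 4, SD). In WT it was Csf1r at 1089 ± 266 per kb, Acp5 at 331 ± 116, Mitf at 185 ± 45.8, Atp6v0d2 at 174 ± 82.5, Tnfrsf11a at 146 ± 19.7, Dcstamp at 85.2 ± 25.3, Itgb3 at 39.5 ± 23.2 and Ctsk at 23.6 ± 37.9 (n = 4, SD). Dcstamp was therefore in place 2 of the 8 in KO and in place 6 in WT. Its KO libraries, at 345 to 567 per kb, overlapped neither those of Csf1r above nor those of Acp5 below, while the genes from Acp5 downwards overlapped their neighbours. In WT, Csf1r stood apart from Acp5 and Tnfrsf11a from Dcstamp, and the other neighbours overlapped. Among listed protein-coding genes the Dcstamp mean per kb was above 89.5% in KO and above 57.5% in WT.

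**Figure D2:**
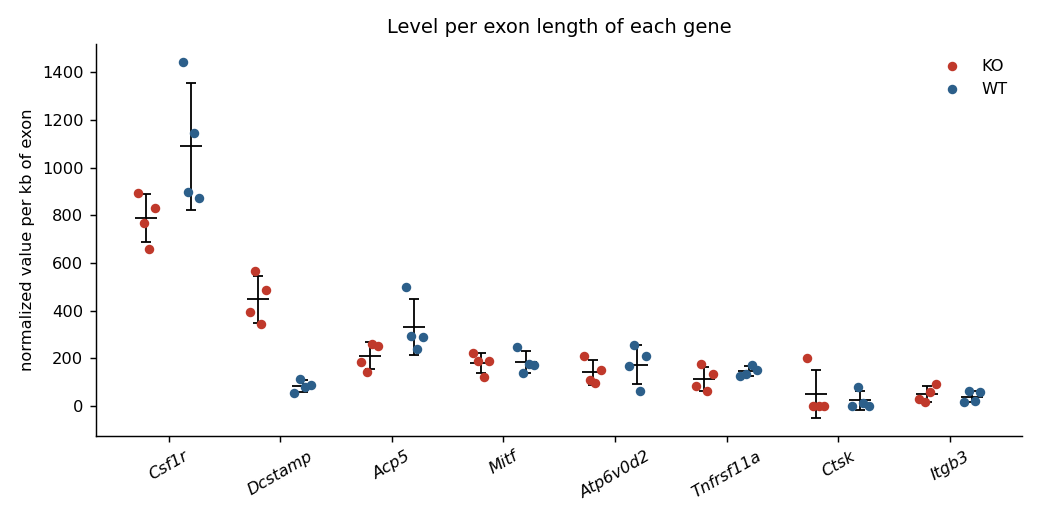
Normalized value per kb of exon for the 8 genes, ordered by their KO mean, with KO points left of WT points. Each point is a library and the bars are the mean and SD (n = 4 each). Dcstamp stands at 449 in KO and at 85.2 in WT, and Csf1r is the highest gene in each group.

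Set against other genes of the same library, Dcstamp gave different pictures. Per 100 of the Csf1r value it had 20.4, 34.0, 24.2 and 27.0 in KO libraries 1 to 4, against 1.72, 5.93, 3.30 and 4.77 in WT libraries 1 to 4. Per 100 of the summed macrophage and monocyte markers it had 0.425 to 0.995 in KO and 0.0492 to 0.132 in WT. The groups were thus apart on either macrophage scale. Dcstamp was chosen for its higher KO values, and Csf1r and 13 of the 14 macrophage and monocyte markers had negative log2 ratios. Of the 12 CD8 T cell markers, 11 had positive ones. Over all 16120 genes tested, 9128 had negative and 6992 positive log2 ratios. None of the markers on the macrophage and CD8 T cell lists passed the threshold. The scales are therefore a description, and which cells the Dcstamp reads came from was not tested. Per 100 of the summed CD8 T cell markers it had 1.80 to 4.39 in KO and 0.594 to 3.35 in WT, where WT library 2, the library with the lowest T cell sum, gave the WT maximum and the groups overlapped through it. Per 100 of the summed activated T cell markers (Il2ra, Tnfrsf9, Ctla4, Icos, Gzmb, Prf1, Pdcd1 and Havcr2) it had 10.3, 12.9, 7.75 and 11.3 in KO libraries 1 to 4, against 5.22, 17.6, 7.88 and 5.41 in WT libraries 1 to 4. On that scale the groups overlapped, with means of 10.6 in KO and 9.02 in WT. WT library 2, which had the lowest activated T cell sum, gave the highest value and raised the WT mean. WT library 3 also lay just above KO library 3. The activation markers themselves summed to 10224 to 11849 in KO and 1745 to 4441 in WT. Of the 8, 5 passed the threshold, all higher in KO, beside 0.211% of all genes tested that passed higher in KO. The most abundant of them, the costimulatory receptor gene Icos, ranged over 1250.5 to 3451 in KO libraries and over 258 to 963 in WT libraries. That list was drawn up with these results known, and the part of T cell activation in the Dcstamp values was not tested. Dendritic cell markers, of which 5 of 10 were above 0 in every library, summed to 2956 to 5893 in KO and 2038 to 2876 in WT, and their part was not tested either. Fibroblast markers, 6 of 8 above 0 in every library, summed to 3902 to 22404 in KO and 8760 to 21216 in WT. Tumour epithelium markers summed to 1043 to 1789 in KO and 770 to 2188 in WT. Neutrophil markers summed to at most 517 in KO and 309.9 in WT, and B cell markers to at most 216 in KO and 164 in WT.

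**Figure D3:**
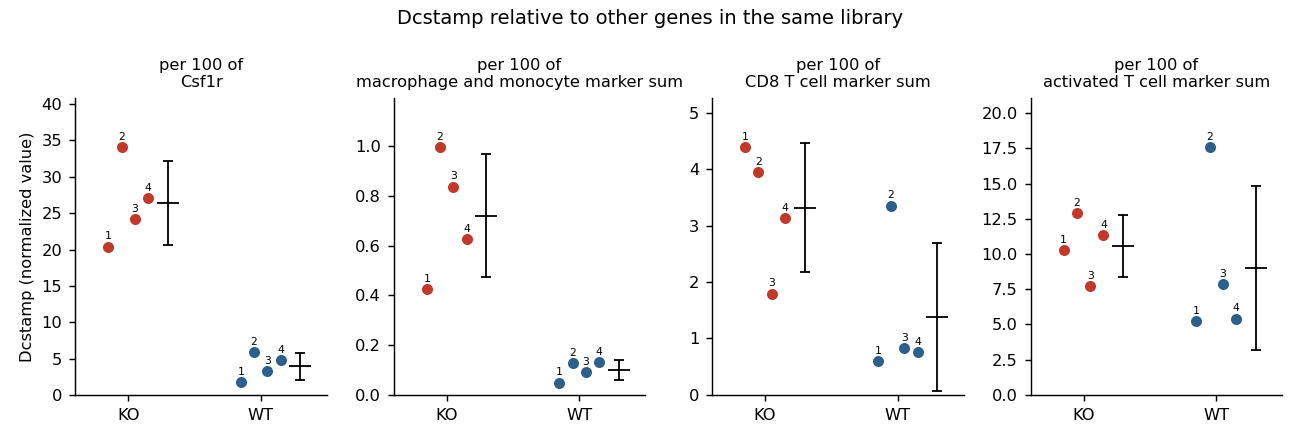
Normalized value of Dcstamp per 100 of Csf1r, of the macrophage and monocyte marker sum, of the CD8 T cell marker sum and of the activated T cell marker sum, with KO left of WT. Points are numbered libraries, and bars are the mean and SD (n = 4 each). The groups are apart for Csf1r and the macrophage sum and overlap for the CD8 T cell and activated T cell sums.

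The other genes of the pathway were taken in 8 lists of 117 genes, of which 109 were tested and 1 passed the threshold, higher in KO, beside 0.236% of all genes. Unadjusted p was under 0.05 for 13 of the 109, beside 1080 of all 16120 genes tested, a share against which the counts of each list are also to be read. The median log2 ratio of the 109 was -0.06, beside -0.12 over all genes tested. The gene that passed was Fosl2, an AP-1 subunit, with 39088, 53090.2, 31622 and 40986 in KO libraries 1 to 4, against 12564, 20121, 11867 and 22839 in WT libraries 1 to 4. Its groups did not overlap, and the log2 ratio was 1.32 (SE 0.24, limma adjusted p = 0.0179). Fosl2 no longer passed when 1 of several libraries was dropped. The limma adjusted p became 0.0580 on dropping KO library 1, 0.107 on dropping KO library 2 and 0.0922 on dropping KO library 4. It became 0.202 on dropping WT library 1 and 0.0844 on dropping WT library 3. Raising the minimum mean to 50 gave 0.0608. Fosl2 is also known to be induced in activated T cells.

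**Figure D4:**
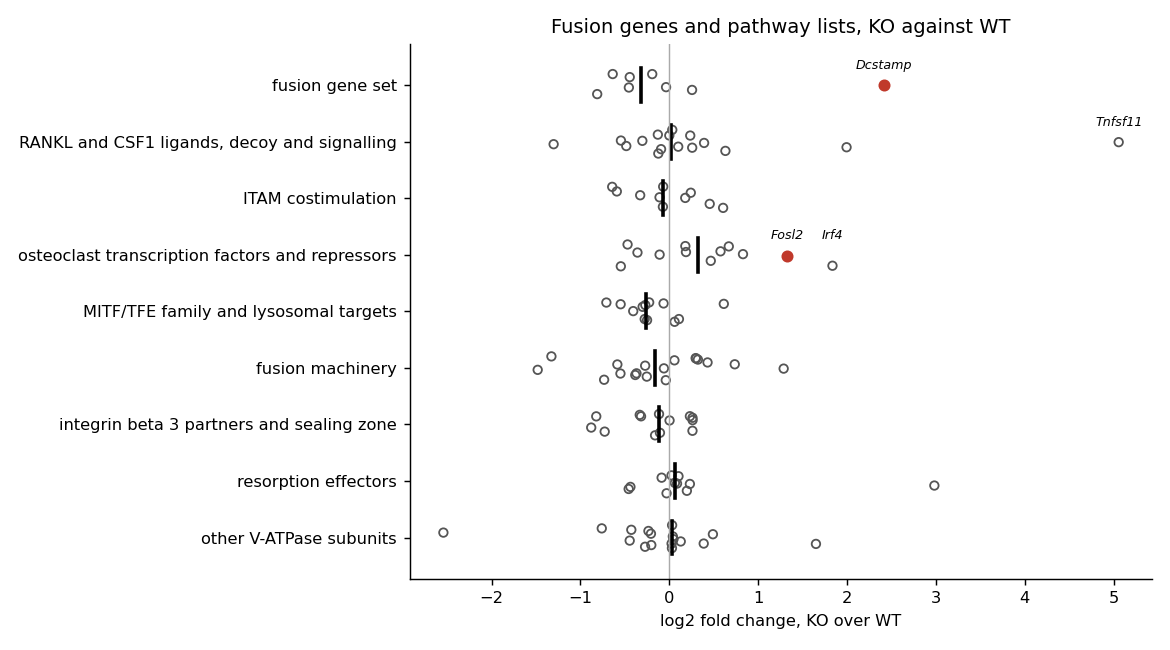
Log2 fold change (KO over WT) of the 8 fusion genes and of the tested genes of the 8 pathway lists. Each circle is a gene, filled where limma's adjusted p was under 0.05, and the black line is the median of the list. Dcstamp at 2.42 and Fosl2 at 1.32 are the filled circles, and list medians lie between -0.32 and 0.33.

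Among ligands and signalling genes of RANK and Csf1r, 0 of 16 passed the limma threshold and 2 had an unadjusted p under 0.05. One was Tnfsf11, which encodes RANKL, with 607, 629.7, 217 and 339 in KO libraries 1 to 4, against 1.86, 1.89, 29.2 and 92.2 in WT libraries 1 to 4. Every KO library was above every WT library, and WT libraries 1 and 2 held about 2 reads, so the log2 ratio of 5.05 (SE 1.39, limma adjusted p = 0.237) depends on the pseudocount and was 3.94 with a pseudocount of 10. The other was Nfkb1, an NF-kappaB subunit, with a KO mean of 2796 ± 697 against a WT mean of 1804 ± 523 and a log2 ratio of 0.63 (SE 0.26, limma adjusted p = 0.719). Cyld, a deubiquitinase that dampens RANK signalling and the most abundant gene of the list, had a log2 ratio of -0.00045 (SE 0.23), which ran from -0.14 without KO library 2 to 0.18 without KO library 1. The decoy receptor Tnfrsf11b, named here after its values were seen, ranged over 0 to 72.3 in KO libraries and over 0 to 21.3 in WT libraries, and was listed at 0 in KO library 2 and WT library 2. Csf1, the ligand of Csf1r and likewise named after its values were seen, averaged 2353 ± 417 in KO and 2656 ± 929 in WT, with a log2 ratio of -0.12 (SE 0.26) and overlapping groups.

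Among transcription factors and repressors of osteoclasts, Fosl2 was the 1 of 12 that passed, and 4 had an unadjusted p under 0.05, beside 1080 of 16120 over all genes. Irf4, a factor that also drives T cell effector states, had 1674, 2074, 2148 and 2634 in KO libraries 1 to 4, against 143, 1538, 607 and 899.6 in WT libraries 1 to 4. Its groups did not overlap, but its log2 ratio of 1.83 (SE 0.48) did not pass (limma adjusted p = 0.201), except with array weights (adjusted p = 0.00792). Without WT library 1 the log2 ratio was 1.16. Nfatc1, the central factor of the programme and named here after its values were seen, was at 2589 ± 438 in KO and 1976 ± 700 in WT (n = 4 each, SD), with a log2 ratio of 0.47 (SE 0.29, limma adjusted p = 0.770) that did not pass. Fos, the AP-1 subunit without which osteoclasts do not form, was also named after its values were seen. It was at 20274, 20198, 19717 and 25976 in KO libraries 1 to 4, against 36544, 28018, 36510 and 25489 in WT libraries 1 to 4, with a log2 ratio of -0.55 (SE 0.20, limma adjusted p = 0.649). Its groups overlapped through KO library 4.

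In the fusion machinery list, 0 of 18 tested genes passed the limma threshold and 3 had an unadjusted p under 0.05. Adam8, a membrane protease of fusing macrophages, had 973, 652, 536 and 729 in KO libraries 1 to 4, against 105, 377, 296 and 591 in WT libraries 1 to 4, with a log2 ratio of 1.29 (SE 0.49, limma adjusted p = 0.657). Its groups overlapped through WT library 4, and the log2 ratio was 0.80 without WT library 1. Sh3pxd2a, the podosome scaffold Tks5, had a log2 ratio of -1.48 with groups that did not overlap (SE 0.55, limma adjusted p = 0.642), or -0.63 without KO library 2. Cd47, a surface protein bound by the macrophage receptor SIRPA and the most abundant of the list, had a log2 ratio of 0.32 (SE 0.21). Ocstamp, the close relative of Dcstamp that osteoclast fusion also requires and named here after its values were seen, was listed at 37.9 in KO library 1 and at 0 in the other 7 libraries, and was below the minimum mean.

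Bone-facing genes gave no call either. In the integrin and sealing zone list 0 of 13 tested genes passed the limma threshold, with 1 at an unadjusted p under 0.05. That gene was Spp1, the integrin ligand osteopontin, at 8364 ± 1991 in KO and 13618 ± 1411 in WT (n = 4 each, SD), with groups that did not overlap and a log2 ratio of -0.73 (SE 0.20, limma adjusted p = 0.267). Vav3, an exchange factor acting below the integrin, had a log2 ratio of -0.82 (SE 0.43), which was -0.49 without WT library 2, -0.51 without KO library 3 and -0.44 with array weights. Fn1 (fibronectin) had one of -0.32 (SE 0.20). In the resorption list 0 of 11 passed and 1 had an unadjusted p under 0.05, Ctsb, the lysosomal protease cathepsin B, at -0.46 (SE 0.22). Car2, the carbonic anhydrase that feeds protons to the pump, was at 340, 249, 37.7 and 34.7 in KO libraries 1 to 4, against 0.930, 83.3, 18.2 and 8.67 in WT libraries 1 to 4, and its groups overlapped (log2 ratio 2.98, SE 1.76, limma adjusted p = 0.770).

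Among 17 other subunits of the proton pump, 0 passed the limma threshold and 1 had an unadjusted p under 0.05, Atp6v0a1 at -0.76 (SE 0.36), or -0.47 without KO library 2. Atp6v0a2 had a log2 ratio of 0.49 (SE 0.26) and Atp6ap2, the most abundant, one of 0.05 (SE 0.23) that ran from -0.15 without KO library 1 to 0.26 without KO library 3. Per kb of exon, the widely expressed isoform Atp6v0d1, named here after its values were seen, averaged 876 in KO and 842 in WT, against 141 in KO and 174 in WT for its osteoclast-enriched counterpart Atp6v0d2. In the MITF family and lysosome list 0 of 12 passed, with 1 at an unadjusted p under 0.05, Lamp1, a lysosomal membrane protein, at -0.55 (SE 0.25), or -0.27 without KO library 3. Ctsd, the lysosomal protease cathepsin D, was at -0.41 (SE 0.20). Among 10 tested adaptor and kinase genes of ITAM receptors, which costimulate RANK, 0 passed limma's threshold and 0 had an unadjusted p under 0.05. The genes of that list with the smallest p were Lcp2 at 0.45 (SE 0.24), or 0.26 without WT library 2, and Tec at 0.60 (SE 0.47), and Syk, the most abundant, was at 0.18 (SE 0.25), running from 0.06 without KO library 2 to 0.43 without KO library 3.

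The chromosomal surroundings of Dcstamp were examined after its values were known. Of 13 listed genes within 1 Mb on chromosome 15, 10 were tested and none passed limma's threshold, while 2 of the 10 had an unadjusted p under 0.05, beside 1080 of 16120 over all genes. These were the neighbours on each side. Dpys, a pyrimidine-degrading enzyme of liver (minus strand, 39631883 to 39720866, 7.5 kb past Dcstamp), had 168, 222, 85.7 and 64.7 in KO libraries 1 to 4, against 0, 0, 2.73 and 0 in WT libraries 1 to 4. Rims2, a synaptic vesicle protein (plus strand, 39061656 to 39547768, 61.6 kb before Dcstamp), had 385, 303, 151 and 341 in KO libraries 1 to 4, against 114, 79.5, 59.2 and 26.8 in WT libraries 1 to 4. The groups did not overlap for either gene, with a log2 ratio of 2.15 (SE 0.88, limma adjusted p = 0.688) for Rims2 and a limma adjusted p of 0.331 for Dpys, whose fitted change runs from 3.63 to 7.24 with the pseudocount. The KO values of Dpys and the WT values of Rims2 amount to few fragments. In WT library 4 the Rims2 value of 26.8 was below the worth of 1 fragment, 33.39. The next gene, Lrp12 (minus strand, 39733985 to 39807390), lay the other way, with 1044, 259.8, 839 and 1049.9 in KO libraries 1 to 4, against 1099.5, 1171, 1074 and 1212 in WT libraries 1 to 4. Its groups did not overlap either, and its log2 ratio was -0.70 (SE 0.39, limma adjusted p = 0.770), or -0.23 without KO library 2. Mtdh lies on the same chromosome, 5.46 Mb before Dcstamp. Of 75 other genes tested within 10 Mb of Mtdh, 0 passed limma's threshold and 6 had an unadjusted p under 0.05, beside 1080 of 16120 over all genes. The median log2 ratio of the 75 was -0.13. Whether the altered Mtdh locus bears on Dcstamp was not tested.

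**Figure D5:**
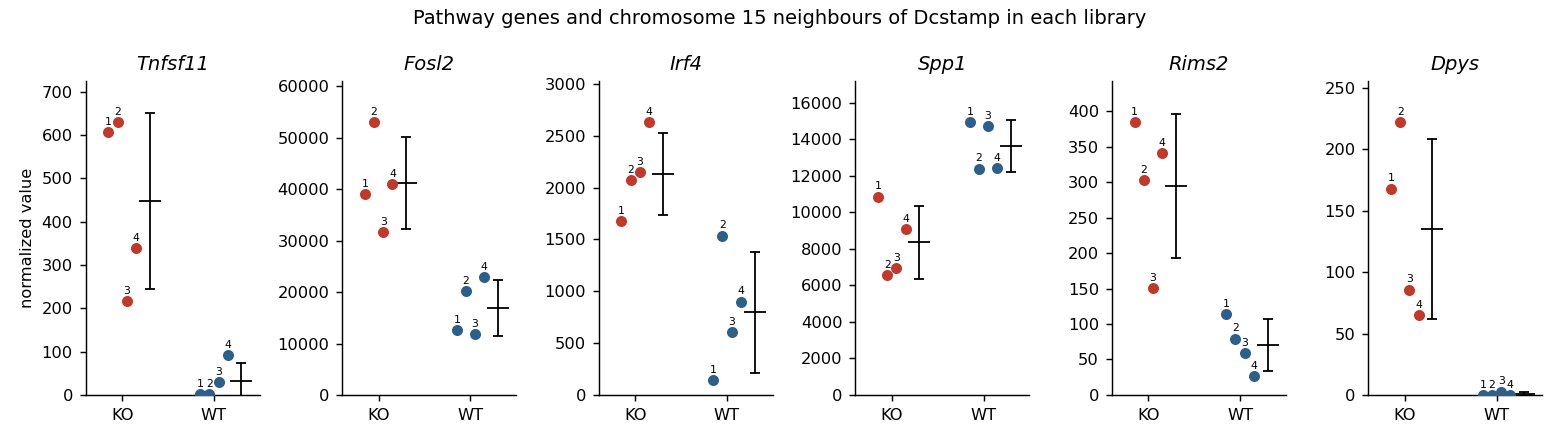
Normalized values, on linear axes from 0, of the pathway genes Tnfsf11, Fosl2, Irf4 and Spp1 and of the chromosome 15 neighbours Rims2 and Dpys, with KO left of WT. Points are numbered libraries and bars are the mean and SD (n = 4 each). The groups do not overlap in any of the 6 panels, Spp1 being lower in KO and the other genes higher in KO. Only genes whose groups did not overlap are shown. Of the 109 pathway genes tested, 3 had such groups higher in KO and 4 lower in KO. Over all genes tested the shares were 2.02% and 2.09%. Further pathway genes lower in KO and the neighbour Lrp12, also lower in KO, are not shown.

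Within the groups, the 10 genes that varied most like Dcstamp were outside the set and the 8 pathway lists. Likeness was the Pearson r of log2 values over the 8 libraries after subtracting each group's mean, among 9168 named genes with a mean of at least 100, and it is given as a description. The 10 highest were Ppp2r3c (r = 0.990), Gcfc2 (0.962), Obi1 (0.954), Aup1 (0.954), Chuk (0.951), Pappa (0.948), Trip13 (0.946), Smc5 (0.946), Cic (0.941) and Agfg2 (0.938). In all, 28 of the 9168 genes reached an r of 0.9. How many would do so by chance over 8 libraries was not estimated. The libraries share depth and complexity across genes, and the part of these in the likeness was not tested. None of the 10 passed limma's threshold or had groups that did not overlap. Within the set, r with Dcstamp was 0.61 for Tnfrsf11a, 0.25 for Itgb3, 0.22 for Ctsk, 0.19 for Atp6v0d2, -0.34 for Mitf, -0.56 for Csf1r and -0.70 for Acp5.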

How the data were processed

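Bulk RNA of 4 KO and 4 WT libraries was analysed from a deposited table. Each deposited value is a signal: reads of a gene that the authors normalized with DESeq2, going by what the table is called. STAR 2.7.8a, DESeq2, Partek and the build mm39 are listed in the submitters' processing notes, without roles. Per the labels' protocols, ribosomal RNA was depleted. Strand was not stated.

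In each library most low values were multiples of 1 step, taken as 1 read: 81.7% to 88.1% of values up to 500 reads lay within 0.02 reads of a whole number. This was too few to treat the values as whole reads, so count models were left out. A fragment's worth was the value at which a Poisson draw leaves out the observed share of genes with under 3 reads, using genes that average 20 to 500 elsewhere and leaving out small RNAs, which the fragment totals also leave out. Intervals for counting error are not given, since copies of 1 fragment are not independent.

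A gene was fitted if its mean reached 10, on log2(value + 1) with limma 3.58.1 in R 4.3.3 (eBayes with trend, two-sided, Benjamini-Hochberg over 16120 genes, threshold 0.05). P-values set the difference between the groups against the spread of the 4 libraries within each group. Members, lists and tests were chosen with earlier results of these data known. Named were the set, Mtdh, per pathway list each gene that passed, the 2 with the smallest p and the most abundant, the most abundant marker per cell type, and the 10 genes most like Dcstamp; predicted genes and small RNAs were left out there. Of 117 pathway genes 113 were matched to a row. Ends are 1 less than the listed stop. Alternatives were pseudocount, minimum mean, scaling, replicate block, array weights, robust hyperparameters and each library left out.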

Additional observations from a re-analysis of the deposited data

Results flagged for a closer look

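Of 82 groups of 4 libraries examined, 8 held a library far from the other 3 by Dixon's criterion. Chance alone marks about 1 in 20 groups where values are normally distributed, which was not tested here. A group with 3 libraries at 0 and 1 above is always marked, as for Ctsk in KO and Dpys in WT. Ctsk was at 303 in KO library 1 and at 0 in the other KO libraries. Dpys was at 2.73 in WT library 3 and at 0 in the other WT libraries. Cd47 was at 17791 in KO library 3, against 25669 to 26619 in the other KO libraries, and at 23658 in WT library 4, against 17379 to 18092 in the other WT libraries. Nfkb1 was at 2581 in WT library 2, against 1455 to 1623 in the other WT libraries, and Cyld at 6416 in WT library 4, against 4257 to 4293. The fibroblast marker Col3a1 was at 9278 in KO library 1, against 1484 to 2450 in the other KO libraries, and at 7967 in WT library 2, against 3007 to 3824 in the other WT libraries.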

How the results depend on the processing

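The log2 fold change of Dcstamp was 2.37 to 2.44 under the settings that kept every library. It was 2.21 to 2.58 when a library was left out. Its direction was the same in all 18 alternatives. Since Dcstamp was chosen for higher KO values and its groups did not overlap, leaving out a library could not turn the direction. Keeping it is therefore no support. The count of genes past limma's threshold, 38, was 63 with a pseudocount of 10, 15 with a minimum mean of 50, 112 with array weights, and 7 to 70 with a library left out (7 without KO library 4, 70 without WT library 4). The count of pathway genes past it, 1, was 0 with a minimum mean of 50, 2 with array weights (Fosl2 and Irf4), and 0 to 1 with a library left out. With the replicate number as a block both counts were 0, and Fosl2 reached a limma adjusted p of 0.0513. Under that block 1101 genes had an unadjusted limma p under 0.05. After each group's mean was subtracted from each gene's log2 values, same-numbered libraries correlated by 0.016 to 0.076. The numbers were therefore not taken to pair them. The causes were not tested. Between 124000 and 583000 fragments per library limit genes near 1 fragment, such as Ctsk and Dpys.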
